A study of Homo sapiens with 6 samples.

Results

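The clustered protocadherins are the genes of the alpha, beta and gamma protocadherin clusters, which lie one after the other on the long arm of chromosome 5. Members were chosen by name, as the protein-coding genes whose symbols start with PCDHA, PCDHB or PCDHG, and 53 of the 60483 genes in the count table met this rule. They are 15 alpha, 16 beta and 22 gamma members, of which 42 (8 alpha, 14 beta and 20 gamma) had enough reads to be tested. RNA was measured in A2780, an ovarian carcinoma cell line grown in RPMI medium with serum, in 3 libraries of the unedited line (WT) and 3 of its CDK12 KO derivative, in which CRISPR/Cas9 plasmids directed to exon 1 of CDK12 had been introduced. The KO line is 1 clone, so what sets that clone apart and what the loss of CDK12 does cannot be told apart. The comparison asks how the RNA of the cell line differed when CDK12, a kinase that phosphorylates RNA polymerase II during transcription, was disrupted. Nothing states that the 3 libraries of a group came from separate cultures, so p-values measure only the spread between these libraries, which may be technical.

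Clustered protocadherins are cell-surface adhesion proteins of the cadherin superfamily, best known for giving neurons individual surface identities through binding between identical isoforms. Each variable exon has its own promoter. In the alpha and gamma clusters the transcribed variable exon is spliced to constant exons shared by the whole cluster, whereas beta members have no shared constant exons. Promoters are used in a cell by choice among many, a process in which CTCF, cohesin and DNA methylation take part, and the chromatin protein SMCHD1 is known to silence members of the family. C-type members (PCDHAC1, PCDHAC2, PCDHGC3, PCDHGC4 and PCDHGC5) lie at the ends of the alpha and gamma clusters and are controlled differently from the others.

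In GRCh38 the alpha members span chr5:140786136-141012347, the beta members chr5:141051374-141249365 and the gamma members chr5:141330514-141512977, all on the plus strand. The sequences below are stretches of promoter, upstream of the start annotated in RefSeq. Each holds the run of 7 letters most common in its cluster among runs that contain CGCT, which was fixed before the search. They are shown because the members differ in their RNA while sharing these letters. They come from RefSeq (GRCh38.p14, plus strand, 5′ to 3′), and the capitals mark the CGCT core of the element that most clustered protocadherin promoters are known to carry.
PCDHA5: tccacatgatgtCGCTggacaccggaaggt
PCDHA11: ggcgcaaggtgtCGCTctttacttggtgga
PCDHA12: gtcacatgatgtCGCTctacactcagaagg
PCDHB2: gacgcggggtggCGCTgcagccttagaagt
PCDHB7: aacgcaaggtggCGCTgctggctaaaaaga
PCDHB16: aacgcgtggtggCGCTgcaggttaagatga
PCDHB12: gacgcgtggtggCGCTgcaggataatatca
PCDHB15: aacgcatggtggCGCTgcaggctaaggctt
PCDHGA4: gactctgggtgtCGCTgttcaccaatcagg
PCDHGA5: gactctgagtgtCGCTgttgaccaaagtgg
PCDHGA6: gactctaagcgtCGCTgttgaccaacctgg
PCDHGA10: gactctgagcgcCGCTgttcacctactagg
The alpha stretches lie at chr5:140821546-140821575 (PCDHA5), chr5:140868887-140868916 (PCDHA11) and chr5:140875248-140875277 (PCDHA12). In GENCODE 44, used for gene positions, PCDHA11 begins earlier, at chr5:140868183, so its stretch lies within that gene's span. The beta stretches lie at chr5:141094548-141094577 (PCDHB2), chr5:141172570-141172599 (PCDHB7), chr5:141182314-141182343 (PCDHB16), chr5:141208647-141208676 (PCDHB12) and chr5:141245318-141245347 (PCDHB15). The gamma stretches lie at chr5:141354964-141354993 (PCDHGA4), chr5:141364111-141364140 (PCDHGA5), chr5:141373839-141373868 (PCDHGA6) and chr5:141412935-141412964 (PCDHGA10). RefSeq promoters of 250 bases before and 50 after the start were matched for 47 of the 53 members, and the 250 bases before the start were searched on both strands. CGCT was present in 45 of the 47 (95.7%), against 67.2% of 27305 promoters of all genes. The exceptions were PCDHA9 and PCDHB8. Longer runs around the core, picked after the promoters had been seen, were TGTCGCT in 10 of 13 alpha promoters (76.9%, against 1.62% of all promoters), TGGCGCT in 12 of 14 beta promoters (85.7%, against 3.82%) and CGCTGTT in 13 of 20 gamma promoters (65.0%, against 2.18%). The core lay a median of 51.5 bases before the start in the alpha stretches, 62.0 in the beta stretches and 48.0 in the gamma stretches. The 250 bases held a median of 5.00 CpG dinucleotides in alpha, 6.00 in beta and 5.50 in gamma promoters, against 11 in all promoters.

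Total counts ran from 11098400 (WT replicate 3) to 30899045 per library, and 3 counts correspond to at most 0.270 CPM in any library. CPM are counts scaled by the library total after TMM scaling. These floors and all counts carry counting error of PCR reads without molecular identifiers, and cover that error only. CDK12 itself read 115 ± 11.1 CPM in WT against 97.9 ± 4.63 CPM in KO (mean and SD of 3 libraries), a log2 fold change of -0.23, and gene counts do not show which allele a read came from. The epithelial and ovarian marker list summed to 69.2 to 75.1 CPM in WT and 116 to 121 CPM in KO. Most of this sum was KRT18, which was higher in KO (59.9 and 103 CPM), as were KRT8 (7.33 and 10.9 CPM) and MSLN (1.06 and 1.73 CPM). EPCAM was lower in KO (3.19 and 2.17 CPM). KRT7 and MUC16 had at most 3 counts in every library, and PAX8, WT1 and CDH1 were close to 0. Of the neuronal list, 5 of 11 markers (ELAVL4, MAP2, GAP43, STMN2 and DCX) had at most 3 counts everywhere, and 4 were tested. NEFL, down-regulated from 11.0 CPM to 0 counts in each KO library, and SYP, at 6.85 and 3.52 CPM, were lower in KO. SNAP25, up-regulated from at most 3 counts in each WT library to 1.43 CPM, and RBFOX3, at 0.374 and 0.764 CPM, were higher. The neuronal sum was 18.8 to 19.9 CPM in WT and 5.57 to 6.30 CPM in KO. The fibroblast list, led by collagens, summed to between 11101 and 11469 CPM in WT and between 8535 and 8814 CPM in KO. Most of that sum was COL3A1, at 6000 CPM in WT and 5953 CPM in KO, which did not pass, and COL1A2. COL1A2 fell from 4573 to 2620 CPM, under the fold threshold. Down-regulated were 5 of the 7 genes (71.4%, against 7.73% of all tested genes). These 5 were COL1A1 (629 to 122 CPM), PDGFRA (90.6 to 14.7 CPM), PDGFRB (7.34 to 1.97 CPM), and LUM and DCN (0.612 and 0.756 CPM, to 0 counts in each KO library). Leukocyte, endothelial and glial lists summed to at most 3.50 CPM in any library, with CD14 (0.374 to 0.709 CPM), VWF (0.192 to 0.703 CPM) and OLIG1 (0.453 to 1.31 CPM, groups overlapping) up-regulated. MBP, the other tested glial gene, was lower in KO on the adjusted p alone (2.30 to 1.67 CPM). The part of any of these lists in the results below was not tested. In bulk RNA, fewer cells with a transcript and less of it per cell cannot be told apart.

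The summed RNA of the family was higher in KO, and the 3 clusters differed in how far. Most gamma members rose, beta members moved both ways, and the sum of the alpha members stayed close to its WT level. Over all 53 members the summed level was 172, 171 and 171 CPM in the WT libraries and 261, 251 and 271 CPM in the KO libraries, a ratio of means of 1.52. For gamma members it was 86.0, 85.5 and 82.2 CPM in WT and 160, 153 and 164 CPM in KO (84.6 ± 2.05 against 159 ± 5.72, SD, n = 3 each), a ratio of 1.88. For beta members it was 68.8, 68.3 and 70.7 CPM in WT and 83.9, 81.6 and 90.4 CPM in KO (69.2 ± 1.30 against 85.3 ± 4.53), a ratio of 1.23. In both clusters the 2 groups of libraries did not overlap. For alpha members it was 17.4, 17.5 and 18.0 CPM in WT and 17.3, 16.5 and 16.7 CPM in KO (17.6 ± 0.326 against 16.9 ± 0.417), a log2 ratio of -0.06. The KO alpha sums were all below the lowest WT sum, by a small margin. Gamma members thereby made up 48.1 to 49.9% of the family's counts in WT libraries and 60.5 to 61.3% in KO libraries, and alpha members 10.1 to 10.5% and 6.16 to 6.63%. No p-value is given for these sums.

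**Figure D1:**
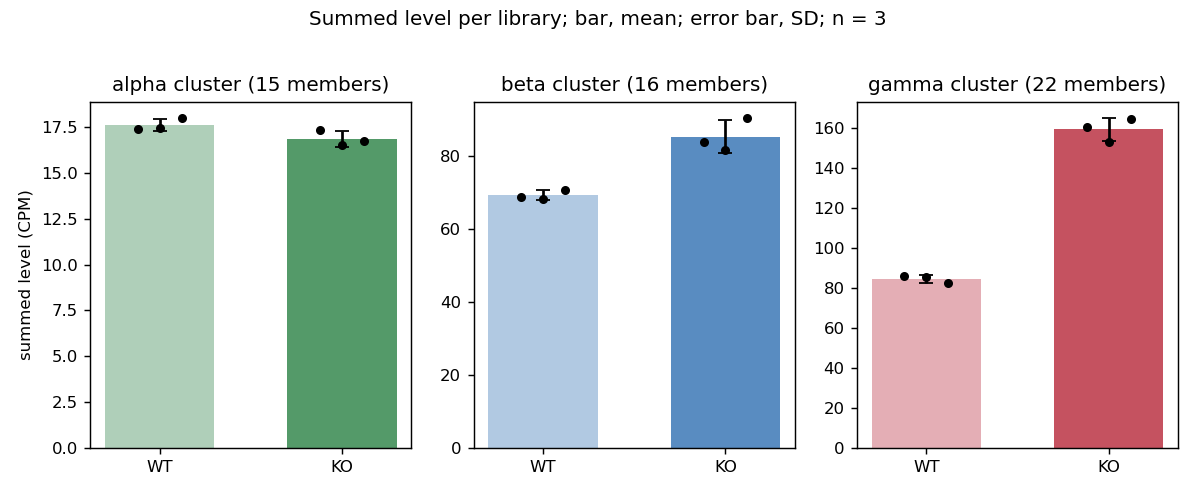
Summed level of the alpha (15 members), beta (16) and gamma (22) clusters in CPM, WT against KO, with 1 point per library, bars at the mean and error bars of 1 SD (n = 3), each panel on its own axis from 0. Gamma sums lie at 82.2 to 86.0 CPM in WT and 153 to 164 CPM in KO, beta sums shift from 68.3 to 70.7 up to 81.6 to 90.4 CPM, and alpha sums stay between 16.5 and 18.0 CPM in all 6 libraries.

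By edgeR's quasi-likelihood test over all 16198 tested genes, where a call needs both an adjusted p below 0.05 and a log2 fold change past 1 in either direction, 9 members were up-regulated and 1 was down-regulated. That is 21.4% and 2.38% of the tested members, where 8.30% of all tested genes were up-regulated and 7.73% down-regulated. Among the 743 tested genes of chromosome 5 these shares were 12.2% and 7.81%, and among the 8585 genes in the members' range of levels 11.4% and 11.0%. The up-regulated members were PCDHB7, PCDHB8, PCDHB15, PCDHGA2, PCDHGA4, PCDHGA5, PCDHGB3, PCDHGA10 and PCDHGA12, and PCDHB11 was down-regulated. On the adjusted p alone, 26 members rose, 4 fell and 12 passed in neither direction, against 31.9% of all genes higher and 32.0% lower. WT and KO libraries did not overlap for 32 of the 42 members, 28 of them higher in KO and 4 lower, where 66.3% of all genes were separated in this sense, 32.8% higher and 33.5% lower. The median log2 fold change of the tested members was 0.60, against 0.00 for all genes and 0.26 for the other 701 tested genes of chromosome 5. It was -0.22 in alpha, 0.38 in beta and 0.81 in gamma members. All 20 tested gamma members lay above the chromosome's median, as did 9 of 14 beta and 3 of 8 alpha members. Of the tested members 2 (PCDHB8 and PCDHGA2) passed the filter on low counts only through their KO libraries, with 0 WT libraries above its cut. PCDHA7 had 2 WT and 3 KO libraries above the cut, and PCDHA6 had 3 WT and 2 KO libraries.

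**Figure D2:**
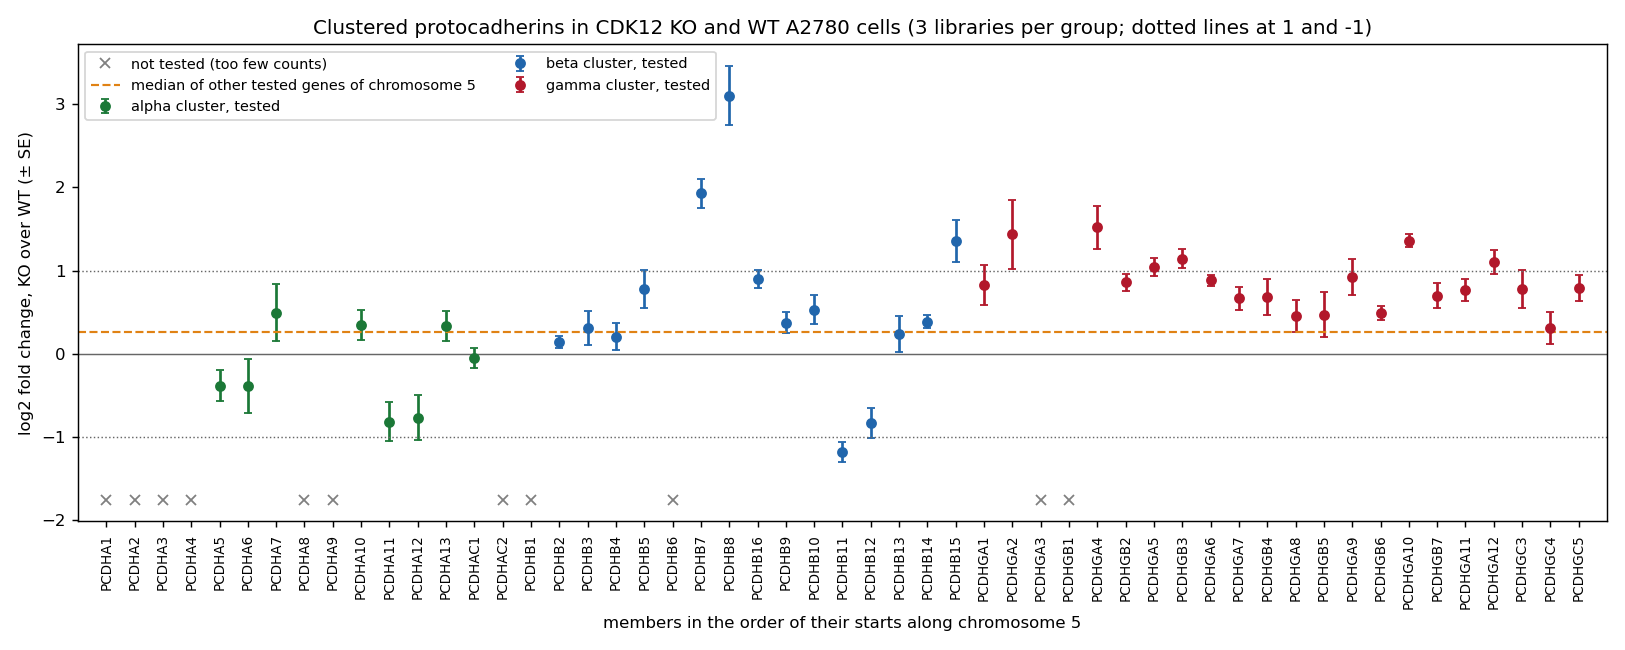
Log2 fold change of KO against WT for each tested member in order along chromosome 5. Error bars are 1 standard error, derived from edgeR's F statistic. Colours mark the clusters, crosses the 11 members not tested and a dashed line the median of the other tested genes of chromosome 5. The 20 gamma members all lie between 0.31 and 1.52, beta members run from -1.18 (PCDHB11) to 3.10 (PCDHB8), and alpha members from -0.81 to 0.50.

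Gamma members were higher in KO from the start of the cluster to its end. All 20 tested members had a positive log2 fold change, from 0.31 to 1.52, against 50.0% of all tested genes, and 18 of them (90%, against 31.9%) passed the adjusted p, with 6 (30%, against 8.30%) up-regulated. None fell by edgeR, voom/limma or DESeq2, and at an unadjusted p under 0.05 the count of lower members was also 0. PCDHGB5 and PCDHGC4 missed the threshold. The cluster interleaves A-type and B-type variable exons, named for sequence likeness, before the C-type exons. Of the A-type members all 11 tested passed the adjusted p, with a median log2 fold change of 0.93 and a summed level of 49.8 CPM in WT and 100.2 CPM in KO. Of the B-type members 5 of 6 passed, with a median of 0.69 and sums of 29.7 and 51.0 CPM. The difference between the types was not tested.

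PCDHGA10 (ENSG00000253846, chr5:141412987-141512975, a span that runs to the end of the shared constant exons) was the gamma member with the smallest p. It read 9.62, 10.4 and 10.2 CPM in the WT libraries and 26.7, 25.1 and 25.7 CPM in the KO libraries. The groups were far apart, and the log2 fold change of KO against WT, called the log2 difference from here on, was 1.36 (SE 0.0781, edgeR adjusted p = 2.40e-16). PCDHGA6 (ENSG00000253731), the member with most gamma counts, read 21.7, 20.1 and 20.9 CPM in WT and 36.9, 39.0 and 39.7 CPM in KO. No WT library reached a KO library, but the rise stayed under the fold threshold at a log2 difference of 0.88 (SE 0.0653, edgeR adjusted p = 1.68e-13). PCDHGB6 (ENSG00000253305), next by counts after these, read 12.3, 11.7 and 11.7 CPM in WT and 16.5, 16.2 and 18.0 CPM in KO. It rose less, by a log2 difference of 0.49 (edgeR adjusted p = 4.05e-06). As shares of the gamma counts, PCDHGA10 went from 11.2 to 12.4% in WT libraries to 15.6 to 16.7% in KO libraries, PCDHGB6 from 13.7 to 14.3% down to 10.3 to 10.9%, and PCDHGA6 held 23.5 to 25.4% and 23.0 to 25.5%.

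Of the other 5 up-regulated gamma members, PCDHGA5 and PCDHGB3 lay next to each other. Only members that were not tested lay between PCDHGA2 and PCDHGA4. PCDHGA5 (ENSG00000253485) read 4.85, 4.83 and 4.05 CPM in WT and 9.76, 9.42 and 9.93 CPM in KO, with a log2 difference of 1.05 (edgeR adjusted p = 7.32e-10). PCDHGB3 (ENSG00000262209) read 5.36, 6.30 and 4.68 CPM in WT and 12.8, 10.9 and 13.9 CPM in KO, with a log2 difference of 1.14 (edgeR adjusted p = 1.73e-10). PCDHGA12 (ENSG00000253159), the last A-type member, read 2.88, 2.17 and 3.42 CPM in WT and 5.93, 5.83 and 5.50 CPM in KO, with a log2 difference of 1.11 (edgeR adjusted p = 8.51e-08). In each of these the lowest KO library was above the highest WT library. PCDHGA5 lost its call without WT replicate 3 (log2 fold change 1.00, just under the threshold) and PCDHGA12 without WT replicate 2 (0.92). PCDHGA4 (ENSG00000262576) was a low member at 0.547, 0.700 and 0.450 CPM in WT and 1.75, 1.52 and 1.96 CPM in KO, with a log2 difference of 1.52 (SE 0.253, edgeR adjusted p = 4.17e-06). PCDHGA2 (ENSG00000081853), lower still, had 4, 11 and 2 reads in WT and 15, 13 and 19 in KO, with a log2 difference of 1.44 (SE 0.414, edgeR adjusted p = 0.00307). Its log2 difference was 2.08 without WT replicate 2. Its smallest WT count was under the floor of 3, and it was kept by the filter only through the KO libraries.

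The C-type members differed from one another. PCDHGC5 (ENSG00000240764) read 1.93, 2.33 and 2.52 CPM in WT and 3.98, 3.97 and 3.42 CPM in KO, with a log2 difference of 0.79 (edgeR adjusted p = 6.56e-05), and PCDHGC3 (ENSG00000240184) rose from 0.964 ± 0.290 to 1.84 ± 0.370 CPM (log2 difference 0.78, edgeR adjusted p = 0.00399). Both had separate groups. PCDHGC4 (ENSG00000242419) read 1.64, 2.10 and 1.80 CPM in WT and 2.76, 2.04 and 2.13 CPM in KO, where the groups overlapped and the log2 difference of 0.31 (SE 0.189, edgeR adjusted p = 0.147) did not pass. In the alpha cluster, PCDHAC1 (ENSG00000248383) read 6.05, 5.50 and 5.58 CPM in WT and 5.24, 6.16 and 5.05 CPM in KO. These groups overlapped, with a log2 difference of -0.05 (SE 0.121, edgeR adjusted p = 0.73). PCDHAC2 (ENSG00000243232), with 9, 12 and 3 reads in WT and 8, 8 and 4 in KO, was too low to be tested.

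The beta cluster held the highest and the lowest log2 fold change of the family. Of its 14 tested members 8 rose and 2 fell on the adjusted p, with 3 up-regulated and 1 down-regulated, and 4 (PCDHB2, PCDHB3, PCDHB4 and PCDHB13) passed in neither direction. As shares, 57.1% rose and 14.3% fell on the adjusted p, against 31.9% and 32.0% of all genes, and 21.4% were up-regulated and 7.14% down-regulated, against 8.30% and 7.73%. The share down-regulated was thus close to that of all genes. PCDHB7 (ENSG00000113212, chr5:141172644-141176383) read 1.24, 1.47 and 1.26 CPM in WT and 4.76, 4.68 and 6.17 CPM in KO, with a log2 difference of 1.93 (SE 0.173, edgeR adjusted p = 1.86e-11). Its next neighbour PCDHB8 (ENSG00000120322, chr5:141177790-141180539) had 6, 6 and 0 reads in WT and 37, 44 and 26 in KO, or 0.140 ± 0.121 against 1.53 ± 0.0900 CPM. Its log2 difference of 3.10 (SE 0.356, edgeR adjusted p = 4.28e-09) was the largest of the family, and it rests on a WT level near the floor. PCDHB16 (ENSG00000272674), the next in order, read 4.78, 5.23 and 5.13 CPM in WT and 9.19, 9.46 and 9.54 CPM in KO, a log2 difference of 0.90 (edgeR adjusted p = 1.14e-08). The KO libraries were above all WT libraries for these 3 neighbours, which together cover chr5:141172644-141186226.

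Further along, 2 neighbours went the other way. PCDHB11 (ENSG00000197479, chr5:141199610-141203779) read 7.98, 7.47 and 7.38 CPM in WT and 3.54, 3.15 and 3.48 CPM in KO, with a log2 difference of -1.18 (SE 0.123, edgeR adjusted p = 5.82e-10). PCDHB12 (ENSG00000120328) read 3.28, 3.43 and 2.34 CPM in WT and 1.75, 1.48 and 2.24 CPM in KO, with a log2 difference of -0.83 (edgeR adjusted p = 2.20e-04), under the fold threshold. Every KO library was below every WT library for both, although PCDHB12 came within a narrow margin. Between the risers and these, PCDHB9 (log2 fold change 0.38) and PCDHB10 (0.53) passed the adjusted p, and beyond them PCDHB13 (0.24) did not. Both lost that call without WT replicate 2 (edgeR adjusted p = 0.0915 and 0.103), and PCDHB9 also without KO replicate 3 (edgeR adjusted p = 0.0804). At the far end, PCDHB14 (ENSG00000120327) rose from 13.0 ± 0.336 to 17.1 ± 1.18 CPM (log2 difference 0.39, edgeR adjusted p = 1.16e-04). PCDHB15 (ENSG00000113248, chr5:141245395-141249365), the last beta member, read 0.875, 0.467 and 0.990 CPM in WT and 1.79, 1.71 and 2.13 CPM in KO, a log2 difference of 1.36 (SE 0.252, edgeR adjusted p = 2.15e-05). PCDHB2 (ENSG00000112852), the member with most beta counts, read 23.0, 24.0 and 26.5 CPM in WT and 26.8, 26.0 and 27.7 CPM in KO. Its groups overlapped, and the log2 difference of 0.15 (SE 0.0686, edgeR adjusted p = 0.062) did not pass, although it did without WT replicate 3 (edgeR adjusted p = 0.0348) or KO replicate 2 (edgeR adjusted p = 0.0483).

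**Figure D3:**
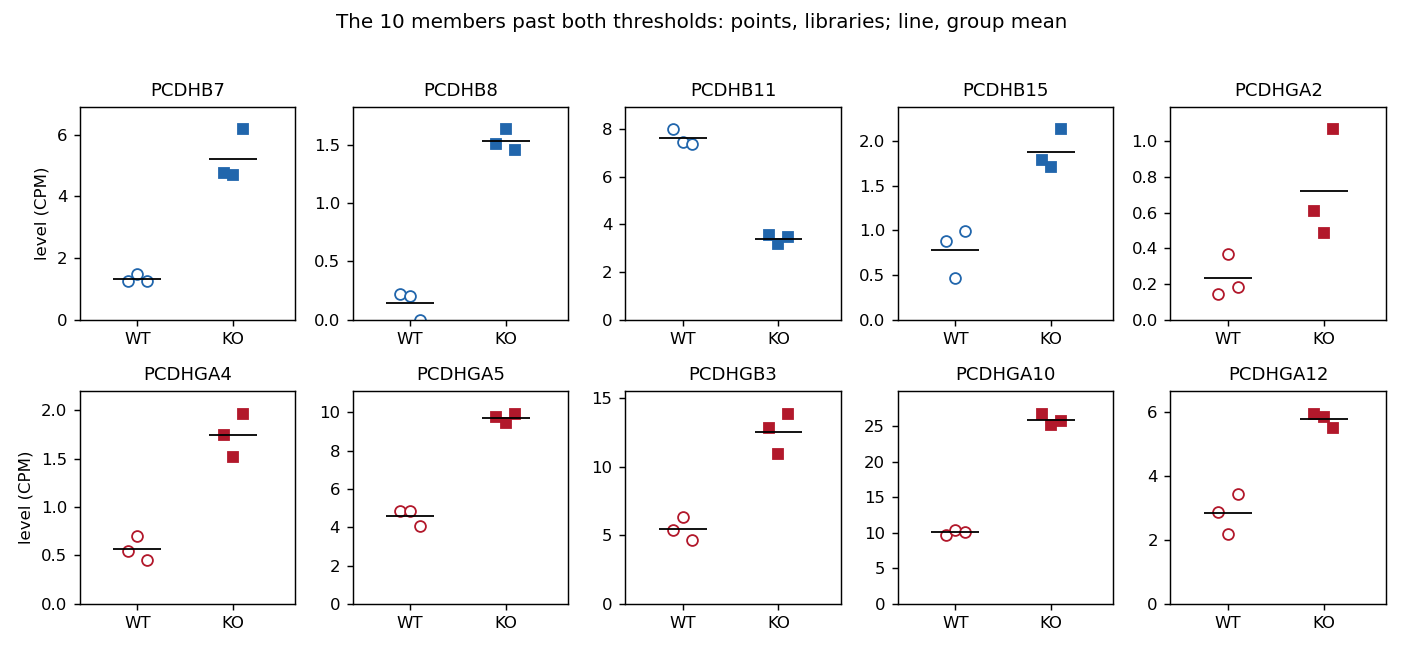
Level in CPM of the 10 members past both thresholds, with 1 point per library (open circles WT, filled squares KO) and lines at the group mean, each panel on its own axis from 0. KO points lie above all WT points in 9 panels and below them for PCDHB11, and the WT points of PCDHB8 lie between 0 and 0.219 CPM.

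The alpha cluster showed no member past both thresholds by edgeR, voom/limma or DESeq2, nor at an unadjusted p under 0.05 with the same fold. Its members were low, and 7 of 15 could not be tested. On the adjusted p alone 2 fell. PCDHA11 (ENSG00000249158) read 1.60, 1.83 and 2.43 CPM in WT and 1.38, 0.891 and 0.842 CPM in KO, with a log2 difference of -0.81 (SE 0.232, edgeR adjusted p = 0.00289). PCDHA12 (ENSG00000251664) read 1.17, 1.00 and 1.08 CPM in WT and 0.650, 0.705 and 0.505 CPM in KO, with a log2 difference of -0.77 (SE 0.272, edgeR adjusted p = 0.0147). These 2 are next to each other, and the groups of libraries were separate for both. The members on either side had values in the other direction that did not pass: PCDHA10 was 1.87 ± 0.166 CPM in WT and 2.44 ± 0.201 CPM in KO, and PCDHA13 (ENSG00000239389) 2.04 ± 0.599 and 2.77 ± 0.186 CPM. PCDHA5 (ENSG00000204965), one of the 3 highest alpha members, was 2.77 ± 0.580 CPM in WT and 2.03 ± 0.287 CPM in KO, with overlapping groups (adjusted p = 0.0697, edgeR). PCDHA12 missed the threshold without WT replicate 1 (edgeR adjusted p = 0.0635) or KO replicate 3 (edgeR adjusted p = 0.0574), and PCDHA5 passed it without WT replicate 1 (edgeR adjusted p = 0.0296) or KO replicate 1 (edgeR adjusted p = 0.042). PCDHA11 passed the fold threshold without KO replicate 1 (log2 fold change -1.09), and PCDHA1, too low to be tested with all libraries, was called higher without WT replicate 3 (1.23) or KO replicate 2 (1.21).

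In the promoter stretches shown above, PCDHB7 and PCDHB16, which rose, and PCDHB12, which fell, hold the same run TGGCGCT. A match is a run of letters and not a measured binding site. Promoters of PCDHA3, PCDHA13, PCDHB6, PCDHB11, PCDHGA12 and PCDHGC5 were not analysed here.

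Levels can be compared between members only per length. Here counts were divided by the kilobases of exon that belong to a single gene. On this scale PCDHB2 was highest in WT, at 5.98 ± 0.444 CPM per kb, followed by PCDHGA6 at 3.63 ± 0.137, PCDHB14 at 3.07 ± 0.0791, PCDHGB2 at 2.74 ± 0.280 and PCDHGB6 at 2.59 ± 0.0762. The gap between PCDHB2 and PCDHGA6 exceeded their SDs, and PCDHGB2 and PCDHGB6 were within theirs. In KO the order changed. PCDHGA6 at 6.70 ± 0.258 CPM per kb and PCDHB2 at 6.55 ± 0.209 were within their SDs of each other, followed by PCDHGA10 at 5.79 ± 0.189, PCDHGB2 at 5.02 ± 0.361 and PCDHGB3 at 4.82 ± 0.576. The last pair were again within their SDs. PCDHB11 went from 1.82 to 0.813 CPM per kb, and PCDHAC1, the highest alpha member by counts, from 1.38 to 1.32.

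**Figure D4:**
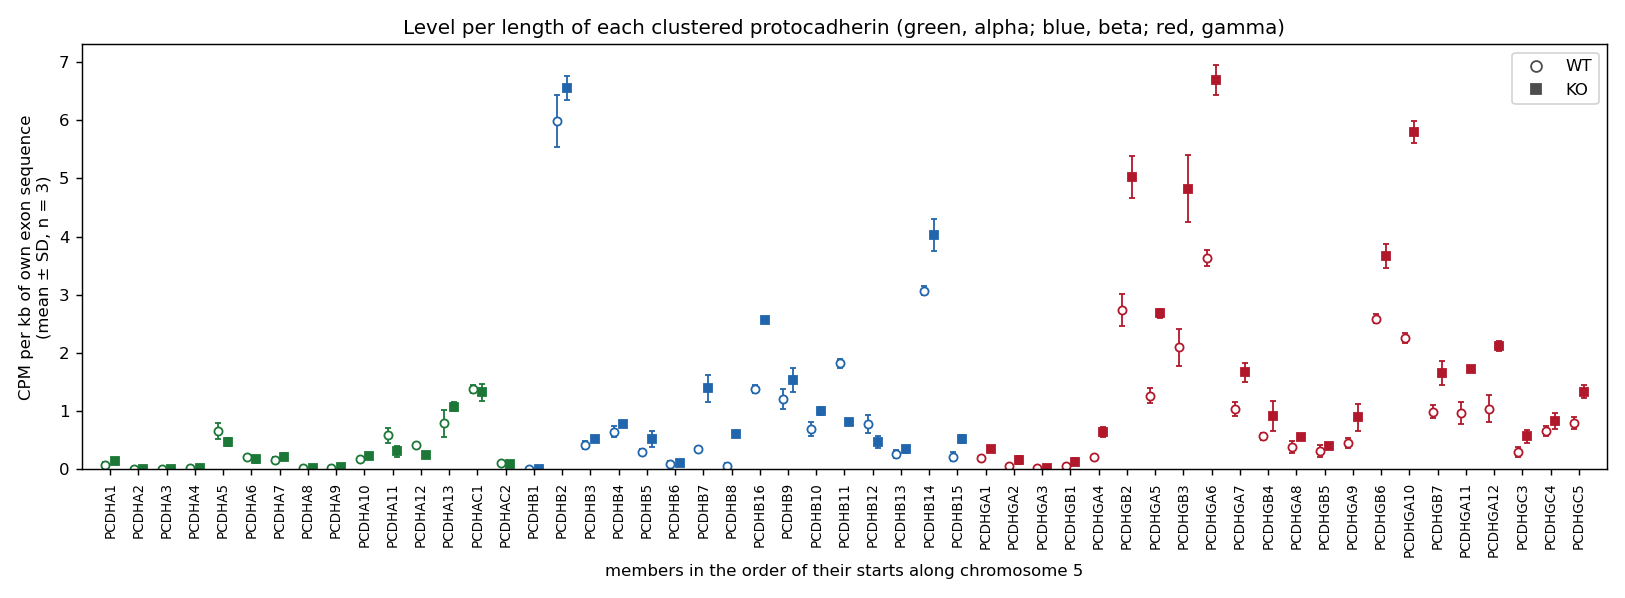
Level of each member per kilobase of its own exon, in CPM per kb, for WT and KO in order along chromosome 5, with points at the mean of 3 libraries and error bars of 1 SD. In WT the highest point is PCDHB2 at 5.98, and in KO it is PCDHGA6 at 6.70, with PCDHB2 at 6.55 and PCDHGA10 at 5.79 close behind.

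Of the 11 members not tested, 7 were alpha (PCDHA1, PCDHA2, PCDHA3, PCDHA4, PCDHA8, PCDHA9 and PCDHAC2), 2 beta (PCDHB1 and PCDHB6) and 2 gamma (PCDHGA3 and PCDHGB1). None had more than 12 counts in any library, and 5 had at most 3 in every one. Exons shared within a cluster bear on all these values. Alpha members share 21.4 to 56.6% of their exon bases with other genes of the table, gamma members 27.5 to 64.4% and beta members 0 to 9.54%. PCDHA2 had 0 counts in all 6 libraries although 56.6% of its exon bases are shared, so reads in the shared exons were not credited to it. Likeness between variable exons also matters. The share of 75-base windows of a member's own exons that occur more than once in the genome was 34.3% in PCDHB8, 29.0% in PCDHB10, 21.1% in PCDHA7, 5.16% in PCDHB7, 2.39% in PCDHGA10 and 0 in PCDHGA4 and PCDHGB3, and how reads from such windows were treated is not given in the sources used here. Exons of other genes lie on the opposite strand within exons of 9 alpha, 9 beta and 1 gamma members. The kit was directional, but the strand setting of the counting is not given in the sources used here, so values of these members are uncertain in that respect. Among them is PCDHB2, the highest member per kilobase in WT. Of its 4098 own exon bases 1797 lie opposite such exons, and 15.4% of its windows are repeated.

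The tested genes beside the clusters were also higher in KO. Before the alpha cluster, HARS2, a mitochondrial histidyl-tRNA synthetase, had a log2 fold change of 0.41 and ZMAT2, a splicing factor, 0.30. TAF7, a TFIID subunit encoded between the beta and gamma clusters, was 164 ± 7.68 CPM in WT and 201 ± 0.511 CPM in KO (log2 difference 0.28, edgeR adjusted p = 5.17e-06). Its neighbour SLC25A2 was near 0. DIAPH1, a formin that nucleates actin and lies next to the end of the gamma cluster, rose from 267 ± 13.2 to 431 ± 5.31 CPM (log2 difference 0.69, edgeR adjusted p = 2.58e-14), and HDAC3, a histone deacetylase beyond it, had a log2 difference of 0.12 (edgeR adjusted p = 0.0483). The gamma median of 0.81 lay above each of these 5 tested values, and the alpha median of -0.22 below each. The study reports a higher DNA content and chromosome number in the KO clone than in the parental line. Its composite karyotype of the clone lists a gained chromosome 5. The number of copies of this region in WT and KO cells was not analysed here, and its part in the differences was not tested.

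Of 32 regulators linked to clustered protocadherin promoters, all tested, 3 were up-regulated and 1 down-regulated, with 10 higher and 12 lower on the adjusted p alone and a median log2 fold change of -0.08. These are 9.38%, 3.13%, 31.3% and 37.5% of the list, against 8.30%, 7.73%, 31.9% and 32.0% of all tested genes, so the list was close to the background for most of these counts. STAG2, a cohesin subunit, rose from 229 ± 8.99 to 495 ± 41.7 CPM (log2 fold change 1.11), ATF7IP, a partner of the histone methyltransferase SETDB1, from 116 ± 9.0 to 235 ± 15.9 CPM (1.02), and CTCFL, the testis paralogue of CTCF, from 0.459 ± 0.114 to 1.44 ± 0.272 CPM (1.59). DNMT3B, a de novo DNA methyltransferase, fell from 38.1 ± 1.92 to 18.8 ± 0.851 CPM (-1.01, adjusted p = 1.13e-14, edgeR). Smaller shifts that passed were those of CTCF (0.21), SETDB1 (0.33) and the maintenance methyltransferase DNMT1 (-0.19). The cohesin subunit RAD21 (-0.07, adjusted p = 0.23), SMCHD1 (-0.08, adjusted p = 0.202) and DNMT3A (-0.10, adjusted p = 0.058) did not pass edgeR's test. Whether any of these bears on the clusters was not tested.

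Other cadherin superfamily genes were read from the same fit. Of 19 protocadherin and protocadherin-like genes outside the clusters, 10 were tested, of which 2 were up-regulated and 5 down-regulated. On the adjusted p alone 3 were higher and 6 lower, and the median log2 fold change was -1.85. The counts are 20%, 50%, 30% and 60% of those tested, against 8.30%, 7.73%, 31.9% and 32.0% of all tested genes. PCDH1, which also lies on chromosome 5, rose from 6.48 ± 0.336 to 104 ± 6.40 CPM (log2 difference 3.99, edgeR adjusted p = 3.56e-30), while PCDH17 fell from 9.12 ± 0.921 to 0.580 ± 0.222 CPM and PCDH19 from 2.62 ± 0.326 to 0.375 ± 0.138 CPM. PCDH7, PCDH9 and PCDH10 were at 5.17, 6.58 and 1.87 CPM in WT and had at most 3 counts in each KO library, and PCDH12 was at or under 3 counts in all WT libraries and at 0.593 CPM in KO. Of 26 classical cadherins and catenins 10 were tested, with 1 up-regulated, 4 down-regulated and a median of -0.20. That is 10% and 40% of those tested, against the same 8.30% and 7.73% of all genes. CTNNA2, a catenin of neural tissue, was 0.154 CPM in WT and 0.456 CPM in KO. JUP, the junctional plakoglobin, fell from 35.2 to 14.5 CPM and CDH15 from 1.42 to 0.593 CPM, while CDH10 (12.05 CPM in WT) and CDH22 (1.15 CPM in WT) had at most 3 counts in each KO library. Of 23 cytoplasmic partners and processing enzymes of clustered protocadherins, all tested, 1 was up-regulated and 3 were down-regulated, with a median of -0.09. That is 4.35% and 13.0%, against 8.30% and 7.73% of all genes. On the adjusted p alone 5 were higher and 11 lower (21.7% and 47.8%, against 31.9% and 32.0%). CYFIP2, a subunit of the WAVE complex that the family's cytoplasmic tails bind, rose from 14.5 ± 1.5 to 32.0 ± 0.689 CPM, and the kinases FYN and RET fell from 12.2 ± 1.88 to 4.95 ± 0.438 CPM and from 16.9 ± 0.986 to 4.58 ± 0.338 CPM. MARCKS, which also fell, was 2.50 CPM in WT and had at most 3 counts in each KO library.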

How the data were processed

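Directional RNA-seq (single-end reads of 75 bases) was available for A2780 WT and CDK12 KO cells, 3 libraries each, grouped by the genotype in the labels. The authors deposited raw counts per Ensembl gene, made with FastQC, STAR on GRCh38 and HTSeq. Tool versions, the annotation release, the strand setting and the treatment of reads with several matches are not given in the sources used here. No normalization had been applied. Genes were matched to GENCODE 44 by identifier (56321 of 60483, 93.1%), which also gave exons and positions. The members and gene lists were chosen with earlier results of these data known.

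In R 4.3.3 with edgeR 4.0.16, genes passing filterByExpr (minimum count 10, minimum total 15; 16198 genes) were scaled by TMM and compared by the two-sided quasi-likelihood test with Benjamini-Hochberg adjustment over all of them. The thresholds, adjusted p under 0.05 and log2 fold change past 1, are those of the study's methods. Standard errors (SE) were derived as the absolute log2 fold change divided by the square root of the test's F statistic. The biological coefficient of variation was 4.35%. On simulated data of 15889 genes, edgeR recovered 100 of 100 genes changed by 2-fold and 100 of 100 changed by 4-fold, with 9 false calls. The changed genes were drawn from those above a mean of 1 CPM, and all genes had the same dispersion. Recovery of lower genes was therefore not assessed. CPM used TMM-scaled totals. Exact permutation of 3 against 3 libraries cannot go below p = 0.1, so it was not used for calls. Pairs of libraries within a group gave a chi-square per degree of freedom of 1.65 to 6.42 over genes, above that of counting noise, so none was counted as a duplicate. Own-exon length was the exon bases held by no other listed gene. Repeated 75-base windows were counted on both strands of GRCh38. Promoters came from RefSeq (GRCh38.p14).

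Values were given in full for every tested member past both thresholds, the 3 highest tested members of each cluster by mean CPM and the 5 C-type members. Neighbours, 7 regulators set out by the rule and the list genes past both thresholds were named with their levels or fold changes only. PCDHA1, PCDHA10, PCDHA11, PCDHA12, PCDHB12 and other members outside the rule were named after their values were seen. Alternatives were median-of-ratios and upper-quartile scaling, voom in limma 3.58.1, DESeq2 1.42.0, other filters and thresholds, thinning to the smallest total and each library left out. Python 3.11.15 was used for the rest.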

Additional observations from a re-analysis of the deposited data

How the results depend on the processing

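Of the recomputed counts and ratios by cluster, 163 stayed within 1.5 times the reported count or within the spread between libraries and 9 did not. When the test was made against the fold threshold itself, 3 members were up-regulated (PCDHB7, PCDHB8 and PCDHGA10) and 0 down-regulated, with 1 gamma member up-regulated and 0 beta members down-regulated. That setting asks more of each gene by construction. After thinning of every library to the smallest total, 2 members were lower on the adjusted p alone in place of 4. With 1 library left out in turn, up-regulated members ran from 8 to 10, down-regulated from 1 to 2 (2 without KO replicate 1), members higher on the adjusted p alone from 23 to 28 and lower from 3 to 5. By cluster these runs gave 0 to 1 up-regulated and 0 to 1 down-regulated alpha members, 3 and 1 beta members, and 5 to 7 and 0 gamma members, with log2 ratios of summed levels of -0.08 to -0.05, 0.26 to 0.33 and 0.89 to 0.94. The cause of these shifts was not tested. No direction turned for any of the 42 tested members, or for a cluster sum, under the alternatives in which it was recomputed, and gamma members tested were all above 0 in every setting. Of the members past the adjusted p alone, 6 lost that call without 1 library: PCDHA12, PCDHB9 and PCDHB10 as given above, PCDHB5 without KO replicate 2 (edgeR adjusted p = 0.0546), PCDHGB4 without KO replicate 3 (edgeR adjusted p = 0.0657) and PCDHGA8 without either of WT replicates 2 and 3 or KO replicates 1 and 2 (edgeR adjusted p = 0.0607 to 0.138). Single named members lost a call in 9 recomputed log2 fold changes, kept their side in 300, and 1 gained a call (PCDHGC3, 1.13 after thinning). A minimum of 10 counts in every library removed PCDHB8, PCDHGA2, PCDHGA4 and PCDHGC3. Of 42 levels per kilobase (21 named members, WT and KO), 30 moved when the whole exon length was used. No paired analysis was possible because the labels number the libraries through both groups and pair none. Depth limits the lowest members most, and 3 counts in WT replicate 3 equal 0.270 CPM.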

Other observations

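From the start of the alpha cluster to the end of the gamma cluster, 6 further genes without a protein product were measured and tested. The pseudogenes PCDHGB8P and PCDHGB9P, which lie among the gamma variable exons, moved as the gamma members around them did. PCDHGB8P rose from 2.05 ± 0.678 to 4.05 ± 0.489 CPM (log2 fold change 1.09, adjusted p = 3.60e-06, edgeR) and PCDHGB9P from 1.43 ± 0.303 to 3.07 ± 0.277 CPM (1.03, adjusted p = 1.15e-05, edgeR). The gene ENSG00000272070, between the beta and gamma clusters, was 0.581 ± 0.208 CPM in WT and 1.18 ± 0.145 CPM in KO (1.17, adjusted p = 6.57e-04, edgeR), and ENSG00000272108, among the beta members, showed overlapping groups (0.16, adjusted p = 0.439, edgeR). In the beta cluster PCDHB17P passed the adjusted p at a log2 fold change of 0.39, and PCDHB19P, at 0.223 CPM in WT and 0.440 CPM in KO, did not (adjusted p = 0.0636, edgeR). These genes were named after their values were seen.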
